A study of Papio hamadryas with 4 samples.

Results

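Kidney transcripts of baboons of the normal SLC phenotype (NSLC) were compared between 6 weeks of a high and 6 weeks of a low sodium diet, as the log2 ratio of the high sodium array over the low sodium array. Members were chosen by their probe annotation and signal. Every probe with a single gene symbol was taken, each gene was represented by its brightest probe, and a gene was kept when that probe was brighter than the array median on both NSLC arrays. This left 12190 of 18774 genes. The study sampled kidney biopsies of Papio hamadryas, of normal or high SLC phenotype (HSLC), after a high and after a low sodium diet of 6 weeks each. The labels do not spell out SLC, and they name no further treatment, genotype or age. Each of the 4 groups has 1 array, carrying probes designed on human genes. How many animals an array stands for, and which diet came first, the labels do not say. No value therefore has an error, no test was possible, and a difference between the NSLC arrays cannot be told apart from a difference between biopsies. A ratio of 1 on the log2 scale is a 2-fold difference, which served as the size rule for counting genes.

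The kidney sets sodium balance along a chain of tubule segments. The proximal tubule reclaims most of the filtered sodium together with phosphate, glucose, amino acids and bicarbonate, and it burns fatty acids to do so. The thick ascending limb takes up sodium through the furosemide-sensitive cotransporter, the distal convoluted tubule through the thiazide-sensitive one, and the connecting tubule and collecting duct through the epithelial sodium channel under aldosterone. Dietary salt loading is known to lower aldosterone. Injured tubule cells are known to lose transporters and to switch on genes such as HAVCR1, SOX4 and SPP1.

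Most genes known from kidney cells were detected on both NSLC arrays. Of 29 proximal tubule genes on the array, 26 were detected on high sodium and 27 on low sodium. For the thick ascending limb these counts were 18 and 17 of 19, and for podocytes 14 on each array of 17. Of all genes, 12190 of 18774 were detected on both arrays. Skeletal muscle genes had 13 and 17 of 23 detected on high and low sodium, so detection alone does not mark a tissue. The median deposited intensity was 79.5 on high sodium and 77.7 on low sodium, whereas the 99th percentile was 3298 on high and 2320 on low sodium. The upper end of the intensities thus lay higher on the high sodium array. The median log2 ratio of all detected genes was 0.27 in the deposited intensities and 0.036 after quantile normalisation, on which the ratios below are based. A gene can therefore have a higher intensity on high sodium and a ratio below 0, and this is said wherever it applies to a gene described.

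On high sodium, 61 genes reached 2-fold higher and 18 reached 2-fold lower, which is 0.5% and 0.148% of all 12190 genes. In the deposited intensities without normalisation, 232 genes were higher and 2 lower by the same rule. At 1.5-fold, 280 genes (2.3%) were higher and 215 (1.76%) lower, and 56.4% of all genes stood above 0. The counts of list members below are to be read beside these shares. All ratios together had a standard deviation of 0.28. Of the genes past 2-fold, 7 higher and 0 lower ones had a mean NSLC signal below the median of all detected genes. The rest lay above it. The normexp offset limits the ratios of dim genes, so this count does not speak for the calls. A higher gene could still be dim on 1 array: FXYD4 had 82.5 on low sodium, close to the array median of 77.7. Genes just inside the rule were STC1 (1.002), APCDD1 (1.003) and TTC7B (-1.001), and genes just outside it were RARRES1 (0.995), ACTA2 (0.992) and FRZB (-0.997); they are given only to show the values near the rule.

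**Figure D1:**
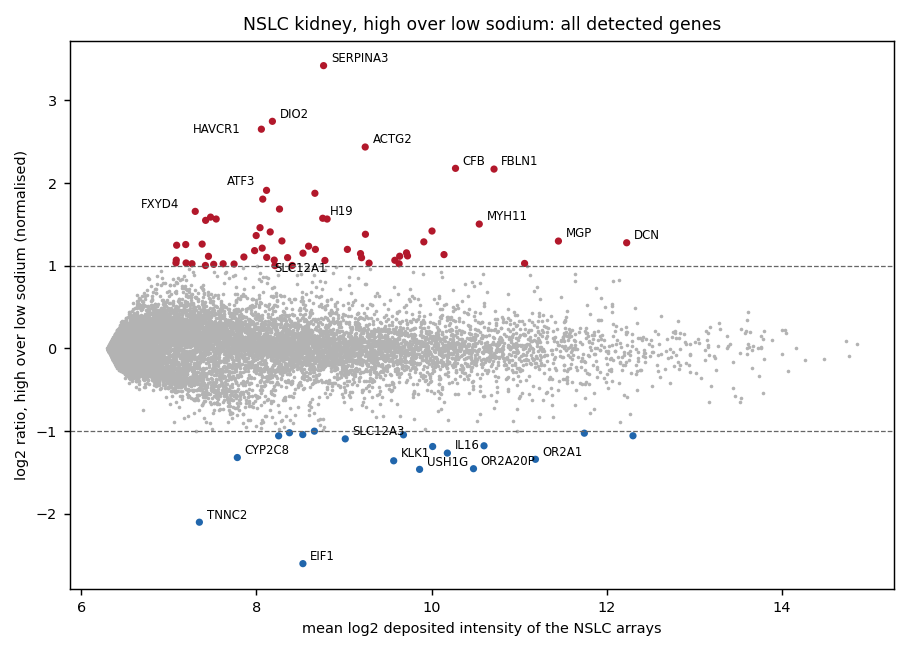
Log2 ratio of high over low sodium in NSLC (vertical axis) against the mean log2 deposited intensity of the NSLC arrays (horizontal axis) for 12190 detected genes. Dashed lines mark 2-fold; the 61 genes above the upper line are red and the 18 below the lower line are blue, with SERPINA3 (3.42) highest and EIF1 (-2.60) lowest.

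Transcripts known from injured tubule cells were among the highest ratios on high sodium. SERPINA3, an acute phase inhibitor of serine proteases, had an intensity of 1600.3 on high and 119 on low sodium, a 10.7-fold difference after normalisation (log2 ratio 3.42). HAVCR1, the membrane protein KIM-1 of injured proximal tubule cells, had 739 on high and 96.0 on low sodium (2.65). The low sodium value of HAVCR1 was close to the array median of 77.7, so the gene was near the detection limit there. SOX4, a transcription factor of progenitor and repairing cells, had 622 against 152 (1.69), and the secreted phosphoprotein SPP1 (osteopontin) had 490.5 against 142 (1.46). KRT19, a keratin of simple epithelia that also marks dedifferentiated tubules, had 1525 against 463 (1.16). MMP7, a matrix metalloproteinase, was below the detection limit on low sodium at 73.2 and reached 984 on high sodium, at least 10.4-fold higher after normalisation.

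The injury and dedifferentiation list as a whole had 22 members detected on both arrays of 30 on the array. Of these, 17 stood above 0 (56.4% of all genes did) and 11 were at least 1.5-fold higher (2.3% of all genes were). Of the 22, 5 were at least 2-fold higher (0.5% of all genes were) and 1 was 1.5-fold lower (1.76% of all genes were). The median ratio of the list was 0.57, against 0.036 over all genes. The member lower at 1.5-fold was KRT7, a keratin of collecting duct and urothelium named after its value was seen, with 138 on high and 183 on low sodium (-0.60). LCN2, the lipocalin released by injured tubules, stood at 0.071, with a sign that depended on the scaling. TNFRSF12A, the receptor of the cytokine TWEAK, was higher at 1.57 (347 against 99.9). So were the protease inhibitor CST6 at 1.81, whose other detected probe read 0.30, and the Ras-induced membrane protein TMEM158 at 1.38. FLRT3, an adhesion protein, stood at 1.37.

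**Figure D2:**
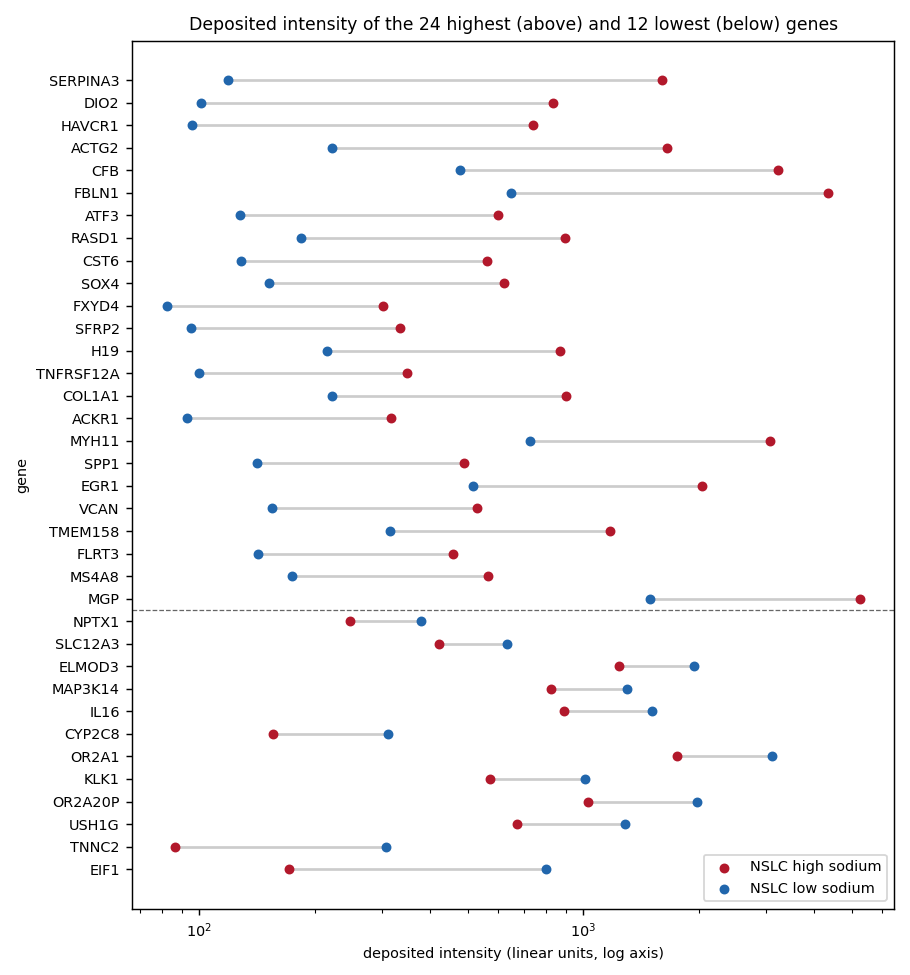
Deposited intensity (horizontal log axis) of the 24 genes with the highest ratios and the 12 with the lowest, separated by the dashed line; red points are NSLC on high sodium and blue points NSLC on low sodium. HAVCR1, DIO2, FXYD4 and SFRP2 lie near 100 or below on low sodium, close to the array median of 77.7.

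Among immune genes, 3 complement components were 2-fold higher on high sodium, and antigen presentation genes mostly stood above 0 at smaller ratios. CFB, the protease of the alternative complement pathway, had an intensity of 3212 on high and 477 on low sodium (2.18). The classical pathway proteases C1R and C1S stood at 1.11 and 1.10. Other detected probes of C1R read 0.97 and -0.056, and one of C1S read 0.64. C3, on which all complement pathways converge, had 216 against 119.7 (0.68), and C5 stood at 0.80. The initiator chain C1QC, made by macrophages, stood at 0.67. In all, 19 of 24 detected complement genes were above 0, 6 at 1.5-fold and 3 at 2-fold, with a median of 0.31. Of all genes, 56.4% were above 0, 2.3% were 1.5-fold higher and 0.5% were 2-fold higher. Among acute phase genes other than SERPINA3, the copper carrier CP was at 0.92, the oncostatin M receptor OSMR at 0.83, the C1 inhibitor SERPING1 at 0.70 (other probe 0.13) and the protease inhibitor A2M at 0.57, whereas the lipoprotein SAA4 was lower at -0.76. Of the 16 detected acute phase genes, 13 were above 0 and only SERPINA3 passed 2-fold.

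MHC class II genes, which present extracellular antigen, had 10 of 11 detected members above 0, 3 at 1.5-fold and a median of 0.43. Over all genes, 56.4% were above 0 and 2.3% were 1.5-fold higher. HLA-DRB4, at 1.5-fold, had 1376 on high and 611 on low sodium (0.60), but its other detected probe read -0.060. The peptide editor HLA-DMB had 1339 on high and 553 on low sodium (0.72), the invariant chain CD74 had 1018 against 451 (0.63, other probe 0.46) and HLA-DRA had 1680.0 against 780.1 (0.54). Class I and immunoproteasome genes were all above 0, 15 of 15, in a narrow band of 0.17 to 0.54, and none reached 1.5-fold. Many HLA genes are alike in sequence, and their probes may share signal. Chemokines and NF-kB targets had a median of 0.17, led by the T cell attractants CXCL10 (0.75) and CCL19 (0.63). Of these, 0 of 22 passed 2-fold, and only 0.5% and 0.148% of all genes were 2-fold higher and lower. Interferon-stimulated genes were of either sign, from IFITM2 at 0.73 and MX1 at 0.57 to IRF7 at -0.53 and OAS1 at -0.74. Of 21 detected, 14 were above 0, beside 56.4% of all genes. The other detected probe of OAS1 read 0.21.

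Markers of leukocytes are given beside these values, against 56.4% of all genes above 0. Of 17 detected macrophage and monocyte genes, 14 stood above 0 and 5 were at 1.5-fold or more. LYZ, lysozyme, had 952 on high and 291 on low sodium (1.20), the lysosomal protein CD68 had 323 against 144 (0.88) and the receptor subunit FCER1G had 228 against 121 (0.73). The summed deposited intensity, not normalised, over the 21 macrophage genes on the array was 8295 on high and 4364 on low sodium. The high sodium array was brighter at its upper end, and the proximal tubule sum was also higher on it, at 70912 against 63400. T and NK lymphocyte genes had 7 of 15 above 0, with the cytotoxic genes CD8A at 0.57 (other probe 0.060) and GZMA at 0.56 and the T cell kinase ZAP70 at -0.87 (other probes -0.45 and 0.025). The deposited sum of the lymphocyte genes was 2579 against 2506. B and plasma cell genes had 3 of 10 above 0, and neutrophil genes 7 of 11, led by the defensin DEFA1B at 0.85, whose other probe read 0.093. No probe of these lists was listed at 0. The part of leukocytes in the complement and MHC class II ratios was not tested, and in bulk tissue more cells of a type and more RNA per cell cannot be told apart.

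Many genes of the extracellular matrix were higher on high sodium. FBLN1, a matrix glycoprotein of connective tissue, had 4337 on high and 650.4 on low sodium (2.17), and its other 2 detected probes read 1.86 and 1.58. The chains of type I collagen, COL1A1 and COL1A2, had 903 against 222 (1.56) and 1826 against 509 (1.29). The proteoglycan VCAN stood at 1.41, the calcification inhibitor MGP at 1.30 and the collagen-binding proteoglycan DCN at 1.28, with a second DCN probe at 0.79. MGP and DCN were among the brightest of the higher genes, at 5250.2 and 8793 on high against 1489 and 2620.0 on low sodium. TIMP1, an inhibitor of metalloproteinases, had 2033 against 629 (1.13) and the protease ADAMTS1 had 555 against 194 (1.10).

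Most collagens other than type I stood above 0 as well. Of the 27 collagen and collagen-processing genes detected, 23 were above 0, 11 at 1.5-fold and 3 at 2-fold. Besides type I, these were led by the anchoring fibril collagen COL7A1 at 1.03, the microfibrillar chains COL6A3 at 0.95 and COL6A1 at 0.80, and the basement membrane chain COL4A1 at 0.90. Of the 30 glycoproteins, proteoglycans and proteases, 26 were above 0, 12 at 1.5-fold and 7 at 2-fold. Of all genes, 56.4% were above 0, 2.3% were 1.5-fold higher and 0.5% were 2-fold higher. The medians of the collagen and glycoprotein lists were 0.48 and 0.43. Fibroblast markers had a median of 0.91, the highest of all 55 lists in the normalised data, with 11 of 11 above 0. They share type I collagen, COL3A1, DCN and LUM with the collagen and glycoprotein lists and are not separate from them. They included SFRP2, a secreted Wnt modulator, at 1.59 (334 against 95.0), the calcium-binding protein S100A4 at 1.20, whose second probe read 0.48, and the growth factor receptor PDGFRA at 0.91. The sum of deposited intensities, not normalised, over the 15 fibroblast genes was 16868 on high and 6092 on low sodium. Of this, DCN alone had 8793 and 2620.0.

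Of 20 detected smooth muscle genes, 5 were at 1.5-fold and 2 at 2-fold higher on high sodium. Over all genes these shares were 2.3% and 0.5%. ACTG2, the gamma actin of visceral smooth muscle, had 1655 on high and 222 on low sodium (2.44), and the myosin heavy chain MYH11 had 3071 against 727 (1.504). ACTA2, the alpha actin of vessels and myofibroblasts, was just under 2-fold at 0.99, and TAGLN and the kinase MYLK stood at 0.82 and 0.64. The other detected probe of TAGLN, an actin-binding protein, read -0.19. LMOD1, an actin nucleator of smooth muscle, was in contrast at -0.44. In all 17 of 20 were above 0, beside 56.4% of all genes, with a median of 0.29. The sum of deposited intensities, not normalised, of the 22 genes on the array was 25386 against 10956. Endothelial genes had a median of 0.058, with 8 of 14 above 0. VWF, the von Willebrand factor, was at 1.15 and the receptor KDR at -0.63. ACKR1, a chemokine receptor of venules and red cells that belongs to none of the lists, had 316 against 92.8 (1.55). How far a different share of vessel wall or interstitium in the biopsies bears on the matrix ratios was not tested.

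Growth factor pathways held members with high and with low ratios. TGFB2, a ligand of the TGF-beta family, stood at 1.07 with 207 on high and 89.1 on low sodium. The response genes ID1 and ID2 stood at 0.61 and 0.62 and CCN1 at 0.60, and 15 of 21 detected members of that pathway were above 0 with a median of 0.14. In the Wnt list, the feedback gene AXIN2 was at 0.87 and the antagonist SFRP1 at 0.66, but FRZB, a further secreted antagonist, was at -0.997. Its median was 0.28, with 12 of 17 above 0, beside 0.036 and 56.4% for all genes.

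**Figure D3:**
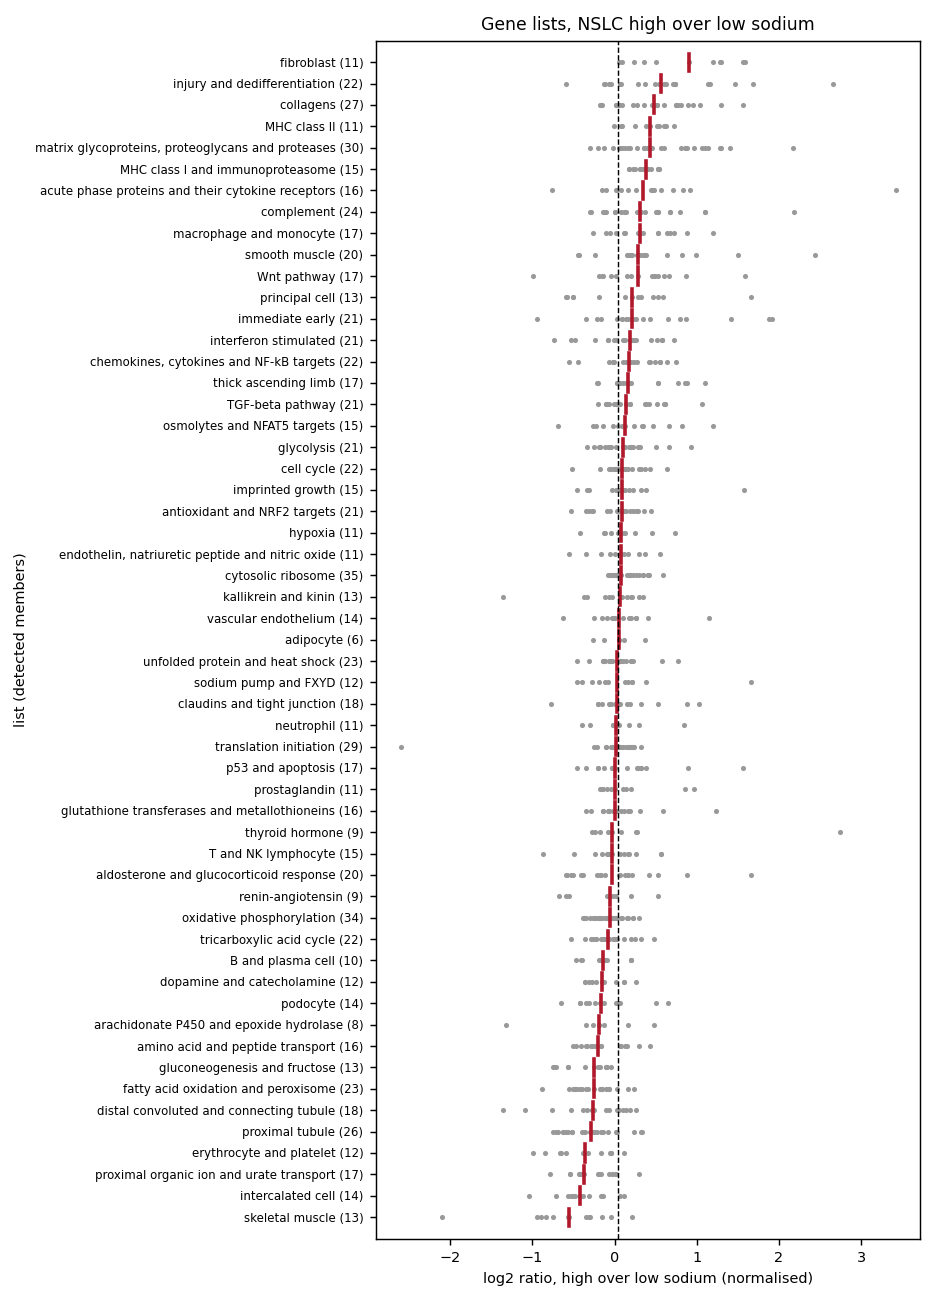
Log2 ratio of high over low sodium in NSLC (horizontal axis) for each detected member (grey points) of 55 gene lists, ordered by their median (red bars); the number of detected members is in brackets and the dashed line is the median of all genes (0.036). Fibroblast, injury and collagen lists stand highest and the proximal organic ion, intercalated cell and skeletal muscle lists lowest.

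Several regulators of transcription and hormone action were among the highest ratios. ATF3, a stress-induced transcription factor, had 600.5 on high and 128 on low sodium (1.91), EGR1, an immediate early factor, had 2041 against 518 (1.42), and RASD1, a glucocorticoid-induced small G protein, had 899 against 184 (1.88). KLF6 and the RNA-binding protein ZFP36 stood at 0.86 (other probe 0.90) and 0.80, but FOSL1, another early factor, was at -0.95. The immediate early list had 17 of 21 above 0 and a median of 0.21, beside 56.4% and 0.036 for all genes. DIO2, the deiodinase that makes active thyroid hormone, had 833 against 101 (2.75). The other deiodinases had smaller ratios, with the hepatorenal enzyme DIO1 at -0.24 (other probe -0.14) and DIO3 at 0.26, and the receptor THRA was at -0.27 (other probes 0.27 and 0.045). The sign of all 3 depended on the scaling.

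Of 15 detected imprinted genes, only H19, a noncoding RNA, was at 2-fold in NSLC, beside 0.5% higher and 0.148% lower of all genes. H19 had 871 on high and 215 on low sodium (1.57). Its neighbour IGF2, a growth factor, was at 0.32, with the opposite sign under 1 of the 8 other scalings or inputs. The metallothionein MT1F, a metal-binding protein, had 694 against 216 (1.24), and MT1G and MT2A followed at 0.58 and 0.31. Metallothionein transcripts are alike in sequence, so their probes may share signal. CYP21A2, the steroid 21-hydroxylase of the adrenal cortex, had 277 against 100.3 (1.26). Its gene has a near-identical pseudogene, and it is uncertain which transcript the probe reads.

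Sodium transport genes were followed along the nephron. In the thick ascending limb, 15 of 17 detected genes were above 0, and 4 were at 1.5-fold. Of all genes, 56.4% were above 0 and 2.3% were 1.5-fold higher. The median of the list was 0.16, close to the 0.036 of all genes, and in HSLC 9 of 16 were above 0. SLC12A1, the furosemide-sensitive sodium-potassium-chloride cotransporter, had 461 on high and 167 on low sodium (1.10). The potassium channel KCNJ1, which recycles potassium for that cotransporter, stood at 0.53, the tight junction protein CLDN3 at 0.88, the transcription factor IRX2 at 0.77 and the prostaglandin receptor PTGER3 at 0.86. The kinase STK39 (SPAK), which activates SLC12A1 and SLC12A3, was at 0.16.

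In the distal convoluted and connecting tubule the leading genes lay on the other side. KLK1, the tissue kallikrein that releases kinins, had 571 on high and 1009 on low sodium (-1.36). SLC12A3, the thiazide-sensitive sodium-chloride cotransporter, had 422 against 635 (-1.09). The calcium buffer PVALB of the early distal convoluted tubule stood at -0.76 and KLHL3, an adaptor that targets WNK kinases for degradation, at -0.54. The kinases WNK1 and WNK4 were at -0.39 and 0.058, both with a sign that depended on the scaling and other WNK1 probes at -0.46 and -0.055, and the phosphate hormone coreceptor KL at -0.071. Only 6 of 18 members were above 0, and the median was -0.26. Before normalisation it was 0.056, which is below the 0.27 of all genes in those values. KLHL3, too, had a slightly higher intensity on high sodium. Of 13 detected kallikrein and kinin genes, 7 were above 0, and KLK1 was the only one at 1.5-fold in either direction. Of all genes, 56.4% were above 0, and 2.3% and 1.76% were 1.5-fold higher and lower.

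In the collecting duct, 8 of 13 detected principal cell genes were above 0, 2 were 1.5-fold higher and 1 was 1.5-fold lower, with a median of 0.22. Over all genes these shares were 56.4%, 2.3% and 1.76%. Among the principal cell genes, FXYD4, a regulator of the sodium pump, had 302 on high and 82.5 on low sodium (1.66). AQP2, the vasopressin-regulated water channel, had 179 against 107 (0.59). The sodium channel subunits differed in the sign of their ratios. The alpha subunit SCNN1A had 1416 against 823 (0.22), the beta subunit SCNN1B 324 against 349 (-0.58) and the gamma subunit SCNN1G 307 against 337 (-0.59). HSD11B2, which inactivates cortisol in aldosterone target cells, stood at -0.51, with slightly higher intensity on high sodium (756 against 733). Of 14 intercalated cell genes only 2 were above 0, with a median of -0.42. The bicarbonate transporter SLC4A9 had 302 against 452 (-1.04), the carbonic anhydrase CA4 was at -0.71, and the proton pump subunits ATP6V1C2 and ATP6V1B1 at -0.57 and -0.53. In the deposited intensities the intercalated cell median was -0.0027, still below that of all genes.

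Hormone systems of sodium and volume had few large ratios. AGT, angiotensinogen, had 182 on high and 114 on low sodium (0.53), and the angiotensin-degrading peptidases MME and ANPEP stood at -0.55 and -0.59, with other MME probes at 0.10 and -0.088. MAS1, the receptor of a vasodilator angiotensin peptide, was at -0.68 with intensities of 166 and 219. ACE was at -0.097, and 3 of 9 detected members of the system were above 0, beside 56.4% of all genes. HSD11B1, which regenerates cortisol, stood at 0.88, the glucocorticoid receptor NR3C1 at 0.42 (other probes 0.15 and 0.066), the mineralocorticoid receptor NR3C2 at 0.13 and the aldosterone-induced kinase SGK1 at -0.21. SGK1 had higher intensity on high sodium, at 2628 against 2141, so its direction depends on the normalisation.

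Prostaglandin genes had 2 members at 1.5-fold, the cyclooxygenase PTGS1 at 0.96 (537 against 204) and PTGER3. The other detected PTGS1 probe read 0.22. Of the arachidonate epoxygenases and hydroxylases, CYP2C8 had 156 on high and 310.5 on low sodium (-1.32), while CYP1B1 was at 0.47. EDN1, endothelin 1, stood at 0.37, the nitric oxide receptor subunit GUCY1A1 at 0.55 and the natriuretic peptide clearance receptor NPR3 at -0.56. Dopamine and catecholamine genes had 4 of 12 above 0 and none at 1.5-fold. Of all genes, 56.4% were above 0, and only 2.3% and 1.76% were 1.5-fold higher and lower. DDC, which makes dopamine in the proximal tubule, was at -0.27, although its intensity was higher on high sodium (6618 against 5713).

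The proximal tubule list stood below 0 after normalisation and above 0 in the unscaled intensities, in both cases below the median of all genes. Of 26 detected proximal tubule genes, 5 were above 0 and 6 were 1.5-fold lower, with a median of -0.29. Of all genes, 56.4% were above 0 and 1.76% were 1.5-fold lower. KHK, which phosphorylates fructose, had 1004 on high and 1165 on low sodium (-0.75, other probe -0.16), the fructose transporter SLC2A5 had 1571 against 1802 (-0.72), and the inositol-degrading enzyme MIOX had 565 against 622 (-0.68). KHK, SLC2A5 and MIOX were named for having some of the largest ratios of the list. Sodium-coupled carriers lay around the list median of -0.29. The phosphate cotransporter SLC34A1 was at -0.21, the glucose cotransporter SLC5A2 at -0.25 and the bicarbonate cotransporter SLC4A4 at -0.37. All of these carriers had higher intensities on high sodium, SLC34A1 with 1547 against 1229.6. Of the protein uptake receptors, LRP2 (megalin) was at 0.32 and CUBN (cubilin) at -0.077, the sign of CUBN depending on the scaling.

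Organic ion and urate carriers had 3 of 17 above 0, beside 56.4% of all genes. Their median was -0.37, from SLC16A9 at -0.79 and the carnitine carrier SLC22A5 at -0.55 upward. Gluconeogenesis and fructose genes had 0 of 13 above 0, among them PCK2 at -0.57 (other probes -0.73 and -0.23), FBP1 at -0.57 and the dihydroxyacetone kinase TKFC at -0.74. Fatty acid oxidation had 3 of 23 above 0 and a median of -0.26, led by the thiolase ACAA1, with 3958 against 5227 (-0.88), and the dehydrogenase ACADS (-0.56). In the deposited intensities the medians of the proximal tubule, organic ion and fatty acid lists were 0.17, 0.10 and 0.16, above 0 and below the 0.27 of all genes. In the series matrix as deposited, the proximal tubule median was 0.057 above that of all genes.

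**Figure D4:**
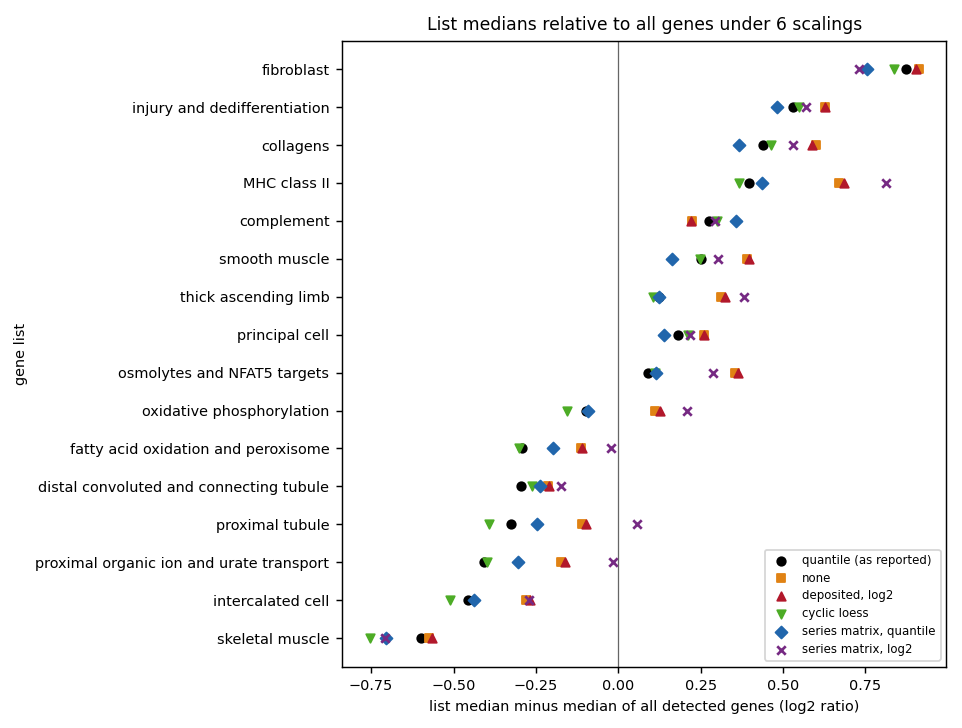
Median log2 ratio of 16 gene lists minus the median of all detected genes (horizontal axis), under the normalisation reported and 5 other scalings or inputs. The fibroblast, injury and collagen medians are to the right of 0 and the skeletal muscle and intercalated cell medians to the left under all 6, whereas oxidative phosphorylation and the proximal tubule cross 0.

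Genes of osmotic adaptation are known to respond to a salty medulla and were described for that reason. The inositol cotransporter SLC5A3 had 667 on high and 268 on low sodium (0.82, other probe 0.11), the inositol synthase ISYNA1 had 227 against 126 (0.66), and NFAT5, the transcription factor that drives such genes, had 208 against 132 (0.46). MIOX, the enzyme of inositol breakdown, stood at -0.68. Of 15 detected members, 10 were above 0, 3 at 1.5-fold and 1 (S100A4) at 2-fold. Over all genes these shares were 56.4%, 2.3% and 0.5%. AKR1B1, the aldose reductase, had no probe with a single symbol, and the betaine carrier SLC6A12 was detected on neither array.

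Energy, growth and housekeeping lists lay close to the median of all genes after quantile normalisation. Oxidative phosphorylation genes had a median of -0.061 within a range of -0.38 (UQCRC1, with the opposite sign in the deposited intensities) to 0.30 (COX7C), and tricarboxylic acid cycle genes one of -0.086. Cytosolic ribosome genes had a median of 0.075, with 28 of 35 above 0, beside 56.4% of all genes. In the deposited intensities their median was 0.55, against 0.27 for all genes. After normalisation, antioxidant genes had a median of 0.090 and cell cycle genes one of 0.091. In glycolysis, the phosphofructokinase PFKP (0.93) had the highest ratio, and the regulator PFKFB3 stood at 0.66 with its other probe at -0.11. In the tight junction list CLDN1, a claudin of parietal and injured cells, had 1079.5 against 361 (1.03). In the unfolded protein list only ASNS, the asparagine synthetase of the amino acid response, reached 1.5-fold (0.77).

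In other lists near that level, single genes stood apart. GADD45B, a stress-induced growth arrest gene, stood at 0.89 in the p53 and apoptosis list and ANKRD37 at 0.73 in the hypoxia list. Podocyte genes ranged from CLIC5, a glomerular chloride channel protein, at -0.65 (other probe 0.091) to the slit diaphragm adaptor CD2AP at 0.65. Amino acid carriers had 6 of 16 above 0, with SLC3A1, a subunit of the cystine transporter, at 0.43 and the neutral amino acid carrier SLC6A18 at -0.51, which was above 0 in the deposited intensities. Adipocyte genes had 4 of 6 above 0, and of all genes 56.4% were above 0.

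The genes that were lower on high sodium were fewer and mixed. EIF1, a translation initiation factor, had 171 on high and 800.2 on low sodium (-2.60), and 834 and 734 in HSLC on high and low sodium. The NSLC high sodium array was thus the only one of the 4 with a low EIF1 signal. The other 28 detected translation initiation genes lay between -0.25 (EIF3I, with the opposite sign in the deposited intensities) and 0.32 (EIF3J). The EIF1 ratio rests on 1 probe. TNNC2, the troponin C of fast skeletal muscle, had 86.4 on high and 307 on low sodium (-2.10).

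Next lowest were USH1G, a scaffold protein of hair cells (674 against 1287, -1.46), the olfactory receptor pseudogene OR2A20P (1031 against 1977, -1.45) and the olfactory receptor OR2A1 (1751 against 3104, -1.34). A second probe of OR2A1 read 0.19. The cytokine IL16 stood at -1.27, the NF-kB inducing kinase MAP3K14 at -1.19, ELMOD3 at -1.18, the secreted pentraxin NPTX1 at -1.06, the mitochondrial import receptor TOMM70 at -1.06, SIPA1L3 at -1.05, the carboxylesterase CES2 at -1.03, DDN at -1.02 and TTC7B at -1.001. Of the 18 lower genes, 12 belonged to none of the lists, against 26 of the 61 higher ones. The lists were chosen with earlier results of these data known, so these counts depend on that choice.

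Transcripts of blood and skeletal muscle stood below 0 as well. The adult haemoglobin genes HBA1 and HBB had 11268 and 11060.1 on high against 12470.0 and 12543 on low sodium, ratios of -0.59 and -0.65, and the fetal genes HBG1 and HBG2 stood at -0.84 and -0.99. Globin transcripts are alike in sequence, and their probes may share signal. Of 12 detected erythrocyte and platelet genes, 1 was above 0, beside 56.4% of all genes. Skeletal muscle genes had 1 of 13 above 0, the desmin gene DES, which smooth muscle expresses too and which was named after its value was seen. Besides TNNC2, the slow troponin TNNC1 was at -0.95, the calcium pump ATP2A1 at -0.89 and MYOZ1 at -0.84. MYL1, a fast myosin light chain, was at 77.8 and below the detection limit on high sodium, against 174 on low sodium. After normalisation it was at least 2.43-fold lower, a bound on that scale and not on the deposited intensities. The summed deposited intensity of the 23 muscle genes on the array was 2576 on high and 3423 on low sodium, with 13 and 17 of them detected. None of them was listed at 0. The part of muscle tissue in the ratios of other genes was not tested.

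The same diet comparison in the HSLC phenotype shares no array with the one in NSLC, although the 4 arrays were normalised together. All 61 higher genes were detected on both HSLC arrays. Of these, 59 stood above 0 in HSLC, where 52.4% of 11908 genes did, and 33 passed 2-fold in HSLC, where 0.537% of genes did. Of the 18 lower genes, 17 were below 0 in HSLC, but only KLK1 and TNNC2 passed 2-fold there, where 0.218% of genes did. HAVCR1 stood at 2.65 in NSLC and 2.64 in HSLC, COL1A1 at 1.56 and 1.47, and CFB at 2.18 and 1.97. KLK1 stood at -1.36 in NSLC and -1.43 in HSLC, SLC12A3 at -1.09 and -0.89, and TNNC2 at -2.10 and -4.81. TNNC2 is a skeletal muscle gene, and the HSLC low sodium array had strong signal of other such genes. CKM had 3538 there against 159 on HSLC high sodium, and MYL1 1849 against 73.6. The part of muscle tissue in the TNNC2 ratios was not tested.

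A few genes were far apart between the phenotypes. ATF3 stood at 1.91 in NSLC and 0.13 in HSLC, EGR1 at 1.42 and 0.091, CYP21A2 at 1.26 and 0.14, and SLC12A1 at 1.10 and 0.19. For EGR1 the NSLC low sodium array was the lowest of the 4, at 518, beside 2041 for NSLC with high sodium; HSLC had 1114 with high and 956 with low sodium. For ATF3 the NSLC high sodium array was the highest, at 600.5, beside 128 for NSLC with low sodium; HSLC had 224 with high and 199 with low sodium. EIF1 stood at -2.60 in NSLC and 0.040 in HSLC. With 1 array a group these differences between phenotypes could not be tested. Among lists, the proximal tubule median was -0.29 in NSLC and -0.52 in HSLC, the collagen median 0.48 and 0.41, and the skeletal muscle median -0.56 and -2.49. Muscle signal was strong on the HSLC low sodium array, with MYOZ1 at 1358 there against 203 on HSLC high sodium. In HSLC 0 of 11 detected muscle genes were above 0.

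**Figure D5:**
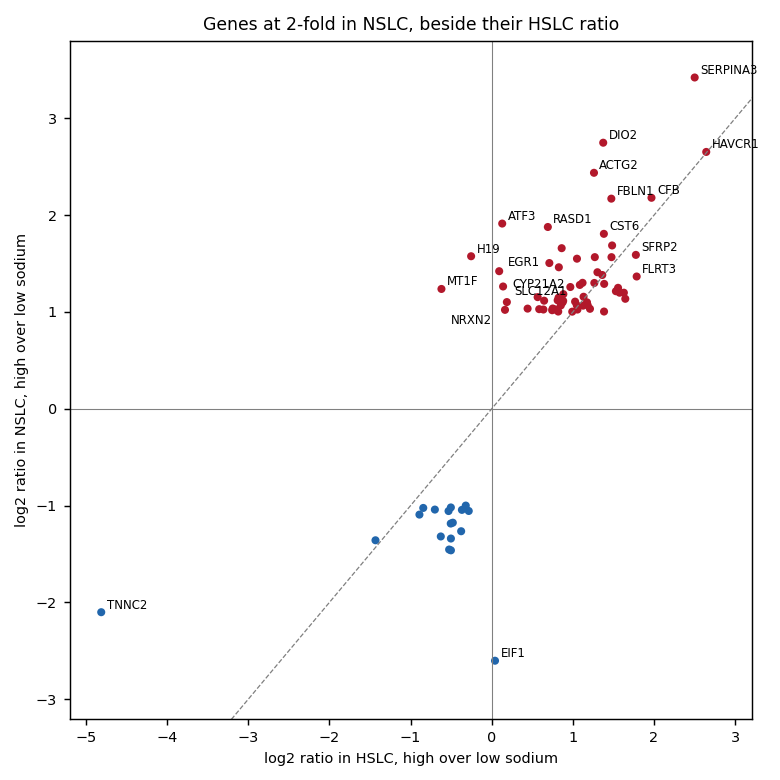
Log2 ratio of high over low sodium in NSLC (vertical axis) against that in HSLC (horizontal axis) for the 79 genes at 2-fold in NSLC; higher genes are red, lower genes blue, and the dashed line marks equal ratios. Most red points lie right of 0, MT1F and H19 lie left of it, and EIF1 (-2.60 in NSLC) lies at 0.040 in HSLC.

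Other probes of the same genes gave a further measurement on the same arrays. In the 1409 genes with 2 or more detected probes, the standard deviation of the difference between the ratios of the 2 brightest, divided by the square root of 2, was 0.22. Only 10 of the genes at 2-fold had a second detected probe. It stood on the same side of 0 in 7 and passed 2-fold in 1, FBLN1. The exceptions were MDK, NRXN2 and OR2A1, of which MDK and NRXN2 are named because their probes disagreed. MDK, a heparin-binding growth factor, stood at 1.21 with a second probe at -0.065, and the neuronal adhesion gene NRXN2 at 1.02 with one at -0.48. Of the 61 higher genes, 39 stayed at 2-fold under all 8 other scalings and inputs tried, against 2 of the 18 lower genes, TNNC2 and EIF1.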

How the data were processed

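Kidney RNA of 4 groups, 1 array each, was measured on Illumina human bead arrays. The deposited intensities came from BeadStudio, per the submitters' processing notes; the version and any scaling went unstated. A series matrix of the same arrays, also deposited by the authors, is not a simple rescaling of them and was used only as an alternative. Of 48702 probes, 23687 had 1 gene symbol in the platform annotation, which can be old, 35 had several and 24979 had none, and 1 probe at 0 was left out. Intensities were background corrected by normexp (offset 50) and quantile normalised over the 4 arrays in limma 3.58.1 (R 4.3.3), then taken to log2. Detected meant above the array's 50th percentile of deposited intensity. A gene detected on 1 array only has a bound instead of a ratio: the bright array's level over the higher of the dim probe's own level and the detection limit.

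With 1 array a group there was no test, and this number limits the precision. Genes were named by rule: the 30 highest and 20 lowest ratios, the 6 largest ratios of each of 55 lists, the 8 highest bounds of each array, and a set of sodium transport and hormone genes. Exceptions are said to be named after their values were seen. The lists and genes were chosen with earlier results of these data known. A list is given by its counts, and most lists by a median too. They are to be read beside the shares and the median of all genes. Alternatives covered 8 scalings or inputs, detection, probe choice and centring. The ratio calculation was tested on simulated data. No promoter sequence was used here.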

Additional observations from a re-analysis of the deposited data

Results flagged for a closer look

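MT1F and H19 were at 2-fold in NSLC and on the other side of 0 in HSLC. MT1F, a metallothionein, had a log2 ratio of high over low sodium of 1.24 in NSLC and -0.62 in HSLC. H19, an imprinted noncoding RNA, had 1.57 in NSLC and -0.25 in HSLC. Both were picked out because the ratios of the 2 phenotypes had opposite signs. For H19 the NSLC high sodium array was the highest of the 4, at 871, beside 215 for NSLC with low sodium. HSLC had 165 with high and 194 with low sodium. The HSLC ratio of H19 was smaller in size than the standard deviation of all NSLC ratios, 0.28. Each ratio comes from 1 array a diet, and the difference between the phenotypes was not tested.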

How the results depend on the processing

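No paired analysis was possible because each group has 1 array and the labels carry no replicate numbers, and for the same reason no array could be left out. Against 61 genes higher and 18 lower at 2-fold, there were 243 and 2 without normalisation, 199 and 3 with median scaling, 232 and 2 in the log2 deposited intensities, and 115 and 47 with a normexp offset of 16. At 1.5-fold, against 280 and 215, these settings gave 2087 and 24, 1555 and 32, 1986 and 24, and 571 and 432, and the series matrix as deposited gave 813 lower. All 61 higher genes stayed at 2-fold in the first 3 of these, where the median of all genes was between 0.23 and 0.28. No named gene at 2-fold changed direction under any alternative, but 80 of the 363 genes open to naming, all under 2-fold, had the opposite sign under at least 1 of the 8 other scalings or inputs.

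List medians relative to the median of all genes moved by less than the probe spread of 0.22 except as follows. Without normalisation, and equally with median scaling, they were 0.67 for MHC class II, -0.17 for proximal organic ion and urate transport, 0.28 for claudins and tight junction, 0.36 for osmolytes and NFAT5 targets, 0.12 for tricarboxylic acid cycle, 0.22 for unfolded protein and heat shock, 0.27 for cytosolic ribosome, 0.24 for translation initiation. In the deposited intensities they were 0.68 for MHC class II, -0.097 for proximal tubule, -0.16 for proximal organic ion and urate transport, 0.29 for claudins and tight junction, 0.36 for osmolytes and NFAT5 targets, 0.13 for tricarboxylic acid cycle, 0.13 for oxidative phosphorylation, 0.23 for unfolded protein and heat shock, 0.29 for cytosolic ribosome, 0.26 for translation initiation. In the series matrix as deposited, the arachidonate P450 (0.020), proximal tubule (0.057) and amino acid transport (0.11) medians turned from at least 0.22 below to above that of all genes. The others, of which claudins, tricarboxylic acid cycle, oxidative phosphorylation, unfolded protein and translation initiation also turned from slightly below to above here and under the 3 settings before, were 0.81 for MHC class II, -0.016 for proximal organic ion and urate transport, 0.38 for thick ascending limb, 0.30 for claudins and tight junction, -0.022 for fatty acid oxidation and peroxisome, 0.18 for tricarboxylic acid cycle, 0.21 for oxidative phosphorylation, 0.32 for unfolded protein and heat shock, 0.37 for cytosolic ribosome, 0.34 for translation initiation, -0.33 for T and NK lymphocyte, -0.25 for neutrophil. Without the detection filter, which adds dim probes, they were 0.30 for injury and dedifferentiation, 0.070 for acute phase proteins and their cytokine receptors, 0.15 for MHC class II, 0.48 for fibroblast, -0.37 for skeletal muscle. With detection above the 75th percentile they were -0.34 for the angiotensin system, 0.50 for macrophage and monocyte, -0.43 for B and plasma cell. The causes were not tested. Signal over background and the normexp offset limit what dim genes can show: no gene below the median signal was 2-fold lower, and 7 were 2-fold higher.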
